A study of Mus musculus with 12 samples.

Results

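The 10 genes described here encode mouse liver enzymes that make, convert or clear oxylipins, the oxygenated products of polyunsaturated fatty acids. They are the epoxide hydrolases Ephx1 and Ephx2, the epoxygenases Cyp2j5 and Cyp2j6, the hydroxylases Cyp4f13, Cyp4f14, Cyp4f15 and Cyp4v3, and the prostaglandin and leukotriene enzymes Ptgr1 and Hpgd. In the mouse annotation (GRCm38) Ephx1 lies on chromosome 1, Ephx2 on 14, Cyp2j5, Cyp2j6 and Ptgr1 on 4, the Cyp4f genes on 17, and Cyp4v3 and Hpgd on 8. They were picked out by gene symbol from the 49398 genes of the deposited count table, and all 10 were among the 13814 genes with enough reads to be tested. Messenger RNA was sequenced from livers of 12 wild-type C57BL/6J mice of both sexes. From 9 months of age the animals ate the purified diet AIN-93G for 8 weeks, either plain (control) or with 1% or 5% by weight of a concentrate oil of very long-chain polyunsaturated fatty acids. The livers were taken after 5 hours without food. Each diet had 4 livers here, 2 of females and 2 of males, whereas the series text speaks of 6 per diet. The control females are N979 and N980 and the control males N967 and N968. At 1% oil the females are N983 and N984 and the males N971 and N972, and at 5% oil the females are N987 and N988 and the males N975 and N976.

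Polyunsaturated fatty acids enter several enzyme routes after they are released from membranes. Cytochrome P450 epoxygenases of the Cyp2c and Cyp2j families turn them into epoxy fatty acids, including epoxides of the omega-3 acids EPA and DHA. Ephx2, the soluble epoxide hydrolase, opens these epoxides to diols, while Ephx1, the microsomal epoxide hydrolase, is best known for the epoxides of drugs and pollutants and also accepts epoxy fatty acids. Cytochromes of the Cyp4f and Cyp4v families hydroxylate fatty acids and leukotrienes at the far end of the chain, and Hpgd and Ptgr1 act in turn to inactivate prostaglandins. The liver is rich in most of these enzymes and clears many oxylipins from the blood.

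Library depth ran from 5291385 estimated reads in control N979 to 15674130 in N976 at 5%. Reads on long noncoding genes made up 0.646% to 1.91% of a library. They were highest in N984 (1.91%), N979 (1.63%), N983 (1.55%), N988 (1.24%) and N971 (1.06%), and all other livers were below 0.93%. The 12 hepatocyte markers summed to 130015 to 217633 CPM (reads scaled to a common library size) in controls, 123846 to 143149 at 1% and 112018 to 135025 at 5%, and none was at 0 in every liver. Of the 12 hepatocyte and 15 Kupffer cell and macrophage markers, 0 passed the test in any diet comparison. Most nevertheless lay below control. Of the 15 Kupffer and macrophage markers 0 had a positive log2 fold change at either dose, with medians of -0.49 at 5% and -0.74 at 1%. Of the 12 hepatocyte markers 1 was positive at 5% and 2 at 1%, with medians of -0.39 and -0.23. The Kupffer and macrophage markers summed to 489 to 938 CPM in controls, 259 to 530.0 at 1% and 238 to 614 at 5%, and their part in the results below was not tested. In whole tissue, fewer cells of a type and less RNA per cell cannot be told apart.

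Levels of different genes were compared per transcript length, as RPKM (reads scaled for transcript length and for TMM-adjusted library size). By the median over the 12 livers, Ephx2 stood first at 447 RPKM (range 214 to 705), followed by Cyp2j5 at 258 (141 to 329) and Ephx1 at 220.2 (40.1 to 512). A second tier held Cyp4f15 at 62.6 RPKM (38.2 to 113), Cyp4f14 at 59.0 (24.8 to 93.0) and Cyp4v3 at 54.6 (27.3 to 104). Below these came Hpgd at 40.0 RPKM (22.7 to 54.9), Cyp4f13 at 37.4 (19.4 to 53.0) and Cyp2j6 at 20.3 (10.8 to 28.3). Ranges of neighbours in this order overlapped except between Cyp2j6 and the last, Ptgr1, at 1.30 RPKM (0.957 to 1.73). Ptgr1 had 380 reads over all livers.

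The 5% diet against control addresses the effect of the higher dose. Of the 10 enzymes, 1 rose, Ephx1, and 1 fell, Cyp2j6 (edgeR quasi-likelihood test, Benjamini-Hochberg adjusted p below 0.05 over all genes). In the fit of diet plus sex, Ephx1 was 4.26 times its control level and Cyp2j6 0.62 times. These folds are estimates of that fit, not ratios of group means. Within females and within males the fold of Ephx1 was 8.80 and 2.12. Over all tested genes 2.46% passed, 1.19% higher and 1.27% lower. An unadjusted p below 0.05 was found for 5 of the 10, the others being Ephx2, Cyp4f14 and Cyp4v3. Over all tested genes 2010 of 13814 had one. The median log2 fold change of the 10 was -0.12, against 0.01 over all tested genes. All comparisons with the control share the same 4 control livers.

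Ephx1 (ENSMUSG00000038776) was read in controls at 69.8 CPM in N979, 116 in N980, 362 in N967 and 405 in N968 (CPM scaled by TMM factors). At 1% it was read at 166 CPM in N983, 256 in N984, 321 in N971 and 456 in N972. At 5% the values were 749 CPM in N987, 888 in N988, 867 in N975 and 759.9 in N976. Each liver at 5% was above each control and each liver at 1%, and the sexes, which lay apart in controls, lay together at 5%. The means were 238 ± 169.6, 299.8 ± 122 and 816 ± 71.6 CPM (SD, n = 4) at 0, 1 and 5% oil. The 5% against control log2 fold change was 2.09 ± 0.38 (standard error; edgeR adjusted p = 0.0127). Higher groups without overlap were found for 3.11% of all tested genes in this comparison. Without control N980 the log2 fold change was 1.96 and the edgeR adjusted p 0.0700, and with no sex term in the design it was 1.78 and 0.122.

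At 1%, Ephx1 did not pass (log2 fold change 0.50 ± 0.36, edgeR adjusted p = 0.633). The difference of 5% from 1% was 1.59 ± 0.36 with an edgeR adjusted p of 0.0519, just short of the threshold. Higher groups without overlap were found for 4.10% of tested genes between 5% and 1%. That difference passed with DESeq2 (adjusted p = 0.000688), limma voom (0.0467) and limma trend on the deposited CPM (0.0352), and with edgeR without N979 (0.0177) or N975 (0.0271). Fitted against oil content as a continuous dose, Ephx1 rose by 0.41 ± 0.06 on the log2 scale for each percent (edgeR adjusted p = 0.00641), and it passed in each of the 12 fits that left out 1 liver. With no sex term the slope was 0.36 and did not pass (adjusted p = 0.0677).

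Within females, Ephx1 rose at 5% by 3.14 ± 0.32 on the log2 scale (edgeR adjusted p = 0.00142), where 1.85% of all tested genes passed (0.854% higher and 0.992% lower). Within males the log2 fold change was 1.09 ± 0.30 (edgeR adjusted p = 0.324), where 0.181% of genes passed. The female response exceeded the male one by 2.05 ± 0.43, which did not pass after adjustment over all genes (edgeR adjusted p = 0.372). No gene passed that test (0 of 13814, or 0%, against 645 at an unadjusted p below 0.05), and 2 of the 10 enzymes, Ephx1 and Cyp4f14, had an unadjusted p below 0.05. DESeq2 called Ephx1 in the same comparison (adjusted p = 0.00409), as did edgeR with no filter on low counts (0.000796). Over all genes these settings called 34 of 13814 and 229 of 25400. The corresponding difference at 1% was 1.16 ± 0.42 (edgeR adjusted p = 1.00), where again 0 of 13814 genes passed and 517 had an unadjusted p below 0.05.

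The promoter of Ephx1 is shown because this gene had the largest change of the 10, with the 250 bases before its RefSeq start (GRCm38.p6, chr1:181017570-181017819, minus strand). Capitals mark the TATA box word.
Ephx1: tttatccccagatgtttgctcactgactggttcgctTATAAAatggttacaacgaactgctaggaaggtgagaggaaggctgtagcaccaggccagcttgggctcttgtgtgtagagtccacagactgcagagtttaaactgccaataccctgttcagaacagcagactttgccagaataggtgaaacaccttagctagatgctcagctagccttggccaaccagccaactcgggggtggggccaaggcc
The TATA box word TATAAA lay at -214 to -209 from the start site. Over 32851 promoter windows of the same length, 12.4% held it on either strand. The other words searched, on both strands, were the NRF2 element TGACNNNGC (in 10.2% of windows), the nuclear receptor word AGGTCA (14.0%) and its direct repeat AGGTCANAGGTCA (0.0335%), which contains that word. None of these letters was in the Ephx1 window. RefSeq windows were found for 9 of the 10 genes, all but Ephx2.

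**Figure D1:**
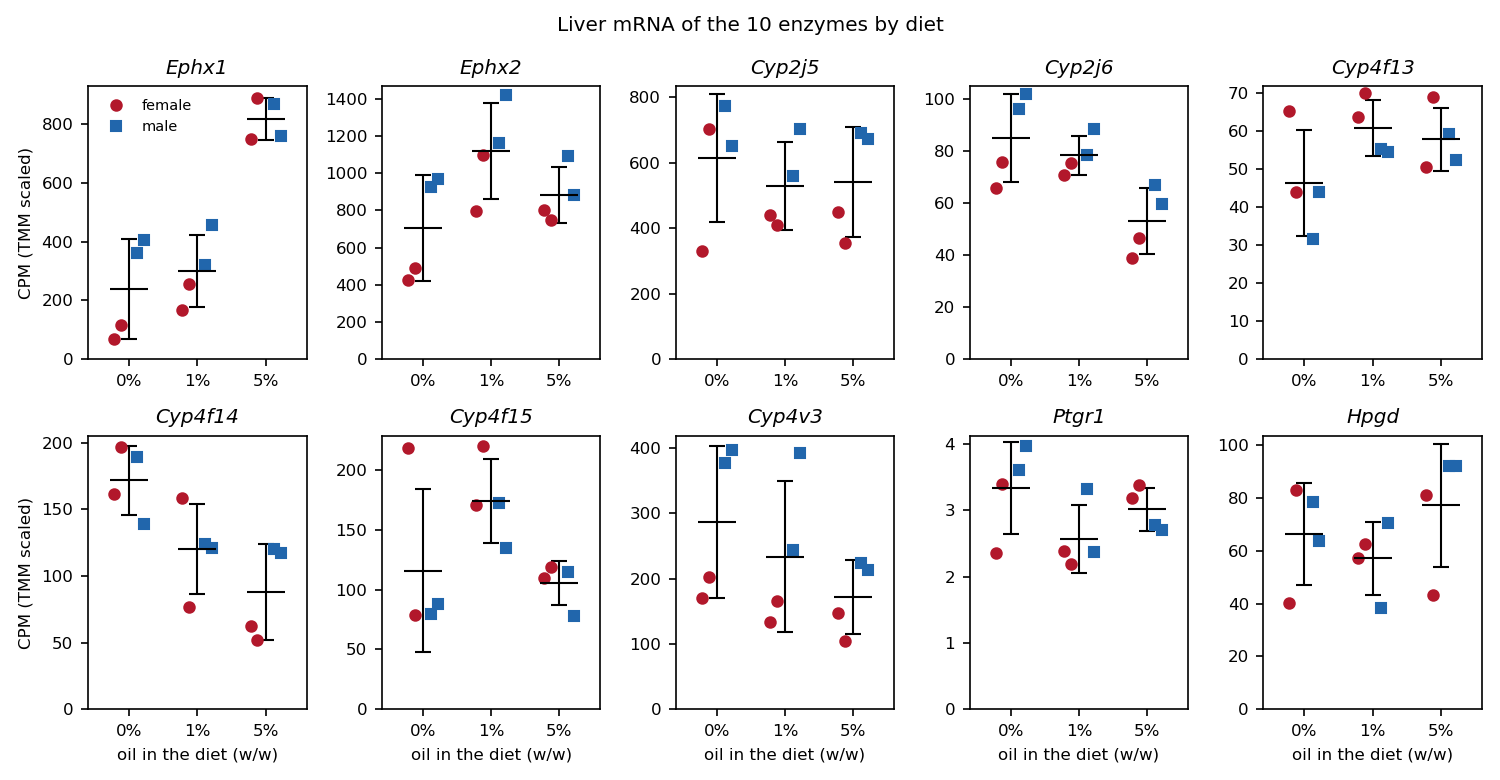
Liver mRNA of the 10 enzymes, in CPM scaled by TMM factors (vertical axes, each from 0), against the percent of oil in the diet. Circles are females and squares males, 1 point per liver, and bars give the mean and SD of 4 livers. Ephx1 at 5% lies between 749 and 888 CPM in all 4 livers, while controls spread from 69.8 to 405.

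Ephx2, the soluble epoxide hydrolase, stood at 426 CPM in N979, 491 in N980, 928 in N967 and 970.1 in N968 among controls. At 1% it stood at 796 CPM in N983, 1099 in N984, 1162 in N971 and 1418 in N972. At 5% the values were 803 CPM in N987, 746 in N988, 1090.4 in N975 and 885 in N976. The 1% livers were the highest by mean, and every pair of diets overlapped. The means were 704 ± 285, 1119 ± 256 and 881 ± 151 CPM (SD, n = 4), in the order of rising oil. Ephx2 passed in neither dose against control. Its log2 fold change was 0.73 ± 0.18 at 1% (edgeR adjusted p = 0.133) and 0.40 ± 0.18 at 5% (0.343), and -0.33 ± 0.18 for 5% against 1% (0.360). DESeq2 called the 1% difference (adjusted p = 0.0124), where it called 266 of 13814 genes, against 31 with edgeR. Within a diet, each female was below each male at 0 and 1% and also at 5%.

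Per transcript length, the ratio of Ephx1 to Ephx2 was 0.188, 0.274, 0.455 and 0.482 in control livers N979, N980, N967 and N968. It was 0.239, 0.267, 0.320 and 0.372 in N983, N984, N971 and N972 at 1%. At 5% it was 1.09, 1.37, 0.949 and 1.03 in N987, N988, N975 and N976, so that Ephx1 reached about the level of Ephx2. The ratio was not a tested quantity, and its values are given as a description.

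Ephx2 reads fell on a pair of transcripts with different first exons. The 19-exon transcript ENSMUST00000070515 took 57.8% of the reads over all livers. A shorter 18-exon protein-coding transcript, which shares 16 exons with it exactly, took 41.8%, and its first exon starts 12114 bases downstream in the GENCODE models (GRCm38). The share of the 19-exon transcript was 53.7% ± 31.3 in controls, 36.8% ± 21.2 at 1% and 70.5% ± 22.6 at 5% (SD, n = 4). The difference of 5% from control, 16.9 percentage points, did not pass (2-sided exact permutation test of 70 splits, p = 0.457, adjusted p = 0.914). The splits did not take sex into account, so differences between the sexes stay in the spread. The smallest p that 4 against 4 livers allow is 0.0286.

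The shares varied widely within each diet. The lowest shares of the 19-exon transcript were 13.2% in control N979, 18.4% in N983, 18.5% in N984 and 38% in N988. Those 4 livers had the 4 highest shares of long noncoding reads, 1.24% to 1.91%. The other 8 livers had Ephx2 shares of 54.6% to 89.8% and noncoding shares of 0.646% to 1.06%. All 4 livers with low shares were female. Transcript estimates share library, depth and RNA quality with the noncoding share, and their part in the transcript shares was not tested.

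**Figure D2:**
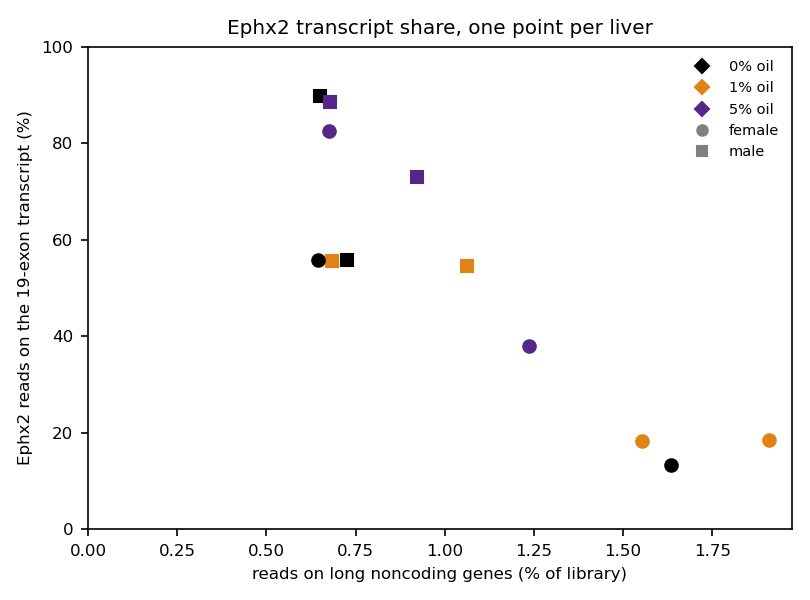
Share of Ephx2 reads assigned to the 19-exon transcript (vertical axis, percent) against the share of all reads on long noncoding genes (horizontal axis, percent of the library), 1 point per liver. Colours give the diet and shapes the sex. The 4 points below 40% on the vertical axis lie at 1.24% to 1.91% on the horizontal axis.

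The epoxygenases took different courses. Cyp2j6 (ENSMUSG00000052914), a Cyp2j enzyme that oxidises polyunsaturated fatty acids, was read in controls at 66.0 CPM in N979, 76.0 in N980, 96.1 in N967 and 102 in N968. At 1% the values were 70.9, 75.6, 78.5 and 88.6 CPM in N983, N984, N971 and N972. At 5% they were 39.0 CPM in N987, 46.7 in N988, 67.0 in N975 and 59.9 in N976. Each female at 5% was below each female of the other diets, and likewise for males, while the male N975 at 5% lay just above the control female N979. The means were 85.0 ± 16.8, 78.4 ± 7.48 and 53.1 ± 12.6 CPM (SD, n = 4). At 5% against control Cyp2j6 fell, at -0.68 ± 0.14 on the log2 scale (edgeR adjusted p = 0.0213).

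At 1%, Cyp2j6 differed from control by -0.10 ± 0.14 on the log2 scale (edgeR adjusted p = 0.834). Each liver at 5% was below each liver at 1%, a log2 difference of -0.59 ± 0.14 with an adjusted p of 0.0582, which passed with DESeq2 (0.00133) and with edgeR without N979 (0.0411) or N975 (0.0416). Lower groups without overlap were found for 3.55% of tested genes there, and DESeq2 called 699 of 13814 genes, against 184 with edgeR. EdgeR called 385 of 14378 genes without N979 and 597 of 14568 without N975. The slope was -0.14 ± 0.03 log2 units per percent of oil (edgeR adjusted p = 0.0149). The 5% call was lost without N980 (adjusted p = 0.0666), N968 (0.0839), N988 (0.0603), N987 (0.0776) or N976 (0.0898), with no filter (0.0518) and with no sex term (0.153). The slope was lost without N988 (0.0684), N987 (0.0853) or N976 (0.0832), and with no sex term (0.115).

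The promoter window of Cyp2j6 is shown beside that of Ephx1 because these genes moved in opposite directions (GRCm38.p6, chr4:96553652-96553901, minus strand).
Cyp2j6: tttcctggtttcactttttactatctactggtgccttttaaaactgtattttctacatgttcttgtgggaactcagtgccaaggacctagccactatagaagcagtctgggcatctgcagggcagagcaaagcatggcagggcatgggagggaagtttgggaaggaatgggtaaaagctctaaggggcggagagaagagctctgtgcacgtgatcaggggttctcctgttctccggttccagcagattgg
It has no capitals, since none of the words searched was in it.

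Cyp2j5, the abundant Cyp2j epoxygenase of mouse liver and kidney, did not pass in any diet comparison. It was read at 331, 703, 772 and 652 CPM in controls N979, N980, N967 and N968. The 1% livers had 439.6, 409, 559 and 703 CPM in N983, N984, N971 and N972, and the 5% livers 448, 353, 689 and 673 in N987, N988, N975 and N976. All diets overlapped, and control N979 was the lowest of the 12. The log2 fold change was -0.22 ± 0.21 at 5% (edgeR adjusted p = 0.718), -0.23 ± 0.21 at 1% (0.710) and 0.02 ± 0.21 for 5% against 1% (0.979). Its promoter window held the nuclear receptor word AGGTCA at -197 to -192 and, on the other strand, the TATA box word at -128 to -123.

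Among the hydroxylases, none passed over all livers at 5%. Cyp4f14, a leukotriene and fatty acid hydroxylase of liver, was read in controls at 162 CPM in N979, 197 in N980, 189 in N967 and 139 in N968. At 1% the values were 158, 76.5, 124 and 121 CPM in N983, N984, N971 and N972. At 5% they were 62.6 CPM in N987, 52.1 in N988, 120.2 in N975 and 118 in N976. Each liver at 5% was below each control, as was the case for 2.98% of tested genes, and the females at 5% were the lowest of the 12. For 5% against control the log2 fold change was -1.03 ± 0.27, which missed the threshold (edgeR adjusted p = 0.0622). It passed with DESeq2 (adjusted p = 0.00539), upper-quartile factors (0.04998), no filter (0.000286), and without N983 (0.0338) or N975 (0.0453). Over all genes DESeq2 called 749 of 13814 and edgeR with no filter 1011 of 25400, against 340 of 13814 in the main fit. EdgeR called 333 of 13814 genes with upper-quartile factors, 280 of 14582 without N983 and 479 of 14568 without N975.

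Within females, Cyp4f14 fell at 5% by 1.65 on the log2 scale (log2 fold change -1.65 ± 0.31, edgeR adjusted p = 0.0216). Within males the log2 fold change was -0.47 ± 0.31 (adjusted p = 0.999). The difference of the responses was -1.18 ± 0.43 (edgeR adjusted p = 0.881). At 1% the log2 fold change was -0.52 ± 0.26 (adjusted p = 0.480), and for 5% against 1% it was -0.50 ± 0.27 (0.342).

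Reads of Cyp4f14 were spread over 3 coding transcripts with more than 5% each, which took 52.1%, 34.6% and 10.3%. The leading one, ENSMUST00000235058, took 49.8% ± 30.2 of the reads in controls, 66.8% ± 5.57 at 1% and 39.5% ± 13.4 at 5% (SD, n = 4), and the 5% difference did not pass (exact permutation p = 0.571, adjusted p = 0.914). The transcript with 34.6% starts 228 bases downstream of the leading one. RefSeq gives Cyp4f14 4 start windows, and the one farthest downstream is shown because it was the only window of the 9 genes with the NRF2 element (GRCm38.p6, chr17:32917088-32917337, minus strand). Capitals mark the match, TGACCAAGC, at -127 to -119.
Cyp4f14: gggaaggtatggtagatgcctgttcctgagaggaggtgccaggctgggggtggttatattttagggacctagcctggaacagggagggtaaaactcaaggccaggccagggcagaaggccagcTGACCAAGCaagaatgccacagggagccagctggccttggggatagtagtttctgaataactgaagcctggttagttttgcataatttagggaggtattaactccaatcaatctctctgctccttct
Over all promoter windows 10.2% held this element. Cyp4f14 had 4 windows in which it could occur, and its other windows did not hold it. The match is a description of these letters, and no binding was measured.

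Cyp4v3, a fatty acid omega-hydroxylase, was read in controls at 169.7 CPM in N979, 203 in N980, 377 in N967 and 397 in N968. At 1% it was read at 133, 165, 243 and 393 CPM in N983, N984, N971 and N972, and at 5% at 148, 104, 224 and 213 in N987, N988, N975 and N976. Males were above females in each diet, and within each sex the 5% livers were below the controls. The means were 287 ± 117, 234 ± 116 and 172 ± 56.4 CPM (SD, n = 4). The log2 fold change at 5% was -0.69 ± 0.18, which missed the threshold (edgeR adjusted p = 0.0604). DESeq2 called it (adjusted p = 0.00929), as did edgeR with a stricter filter (0.0447), after adding the noncoding share as a covariate (0.0217) and without N987 (0.0459). Over all genes these settings called 749 of 13814, 376 of 9850, 574 of 13814 and 193 of 14599. At 1% the log2 fold change was -0.30 ± 0.18 (adjusted p = 0.554), and the slope was -0.13 ± 0.04 per percent of oil (0.0773).

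Cyp4f15 and Cyp4f13, of the leukotriene hydroxylase family, did not pass at 5%. Cyp4f15 was read at 219 CPM in control N979, against 78.5, 79.3 and 87.7 in N980, N967 and N968. At 1% it was read at 171, 220.2, 172 and 135 CPM in N983, N984, N971 and N972, and at 5% at 109.9, 119, 115 and 78.0 in N987, N988, N975 and N976. Control N979 lay apart from the other controls and among the 1% livers. The log2 fold change at 1% was 0.63 ± 0.27 (edgeR adjusted p = 0.414). Without N979 it was 1.04 (adjusted p = 0.0163), the single call among the 10 at 1% in a fit that left out a liver. That fit called 184 of 14378 genes at 1%, against 31 of 13814 in the main fit. Every 5% liver was below every 1% liver, with a log2 difference of -0.72 ± 0.27 (adjusted p = 0.184, and 0.0368 without N979). Lower groups without overlap were found for 3.55% of tested genes between these doses. There the fit without N979 called 385 of 14378 genes, against 184 of 13814 in the main fit. Cyp4f15 values were high in livers with a high noncoding share, N984 (1.91%), N979 (1.63%), N983 (1.55%) and N971 (1.06%), while N988, with 1.24%, had 119 CPM. N972, with only 0.685%, had 135 CPM. Of these, N984, N983, N971 and N972 are the 1% livers, so diet and noncoding share overlap in this pattern. With the noncoding share in the fit, the log2 value of Cyp4f15 was 0.35 at 1%, 0.020 at 5% and -0.33 for 5% against 1%, and none passed.

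Cyp4f13 was read at 65.1, 44.0, 31.7 and 43.9 CPM in controls N979, N980, N967 and N968. It was read at 54.4 to 69.8 CPM at 1% and at 50.6 to 68.9 CPM at 5%. Control N979 again lay with the livers on oil. The log2 fold change was 0.34 ± 0.18 at 5% (edgeR adjusted p = 0.409), 0.41 ± 0.18 at 1% (0.425) and -0.07 ± 0.18 between the doses (0.877). The leading transcripts of Cyp4f13 (66.5% of reads) and Cyp4f15 (87.7%) did not pass the exact permutation test of their shares (adjusted p = 0.914 for both). Words of 31 bases shared with other genes made up 9.76% of the leading transcript of Cyp4f13, 8.89% of Cyp4f14 and 7.85% of Cyp4f15. Part of their reads may thus have been shared out by estimation, which was not examined in the reads. The shares were 7.49% for Cyp4v3, all with an overlapping gene model, at most 3.57% for Ephx1, Cyp2j5, Cyp2j6 and Ptgr1, and 0% for Ephx2 and Hpgd.

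Hpgd, the dehydrogenase that starts prostaglandin inactivation, did not pass at either dose. It was read at 40.1, 83.2, 78.5 and 63.9 CPM in controls N979, N980, N967 and N968. The range was 38.2 to 70.6 CPM at 1%, and at 5% the values were 81.3, 43.3, 92.4 and 92.2 CPM in N987, N988, N975 and N976. The diets overlapped, with a log2 fold change of 0.20 ± 0.27 at 5% (edgeR adjusted p = 0.825), -0.21 ± 0.27 at 1% (0.818) and 0.41 ± 0.27 between the doses (0.457). Ptgr1, which reduces the products of Hpgd and also acts on leukotriene B, was read at 2.19 to 3.97 CPM over all livers. Its log2 fold change was -0.14 ± 0.25 at 5% (adjusted p = 0.872), -0.38 ± 0.26 at 1% (0.616) and 0.24 ± 0.25 between the doses (0.656). These values rest on 13 to 51 reads per liver.

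**Figure D3:**
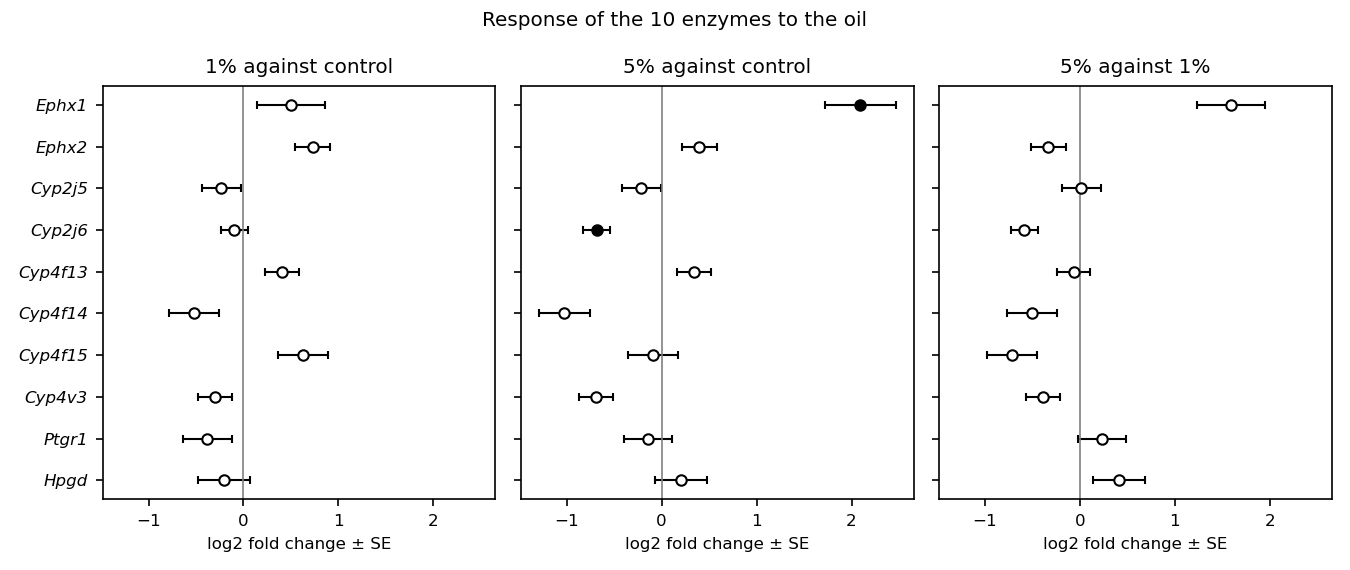
Log2 fold changes with standard errors (horizontal axes) of the 10 enzymes for 1% against control, 5% against control and 5% against 1%. Filled points passed the edgeR test at an adjusted p of 0.05. The filled points are Ephx1 (2.09) and Cyp2j6 (-0.68) in the 5% against control panel.

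The 1% diet against control asks about the lower dose. Of the 10 enzymes 0 passed the edgeR test, where 0.224% of all tested genes did. An unadjusted p below 0.05 was found for 3 of the 10 and for 1530 of all 13814 genes. DESeq2 called 1, Ephx2, and 266 of all 13814 tested genes. The median log2 fold change of the 10 was -0.15, against 0.00063 over all genes. Between 5% and 1%, 0 of the 10 passed with edgeR, where 1.33% of all genes did. In this comparison 4 of the 10 and 2454 of all 13814 genes had an unadjusted p below 0.05. There DESeq2 called 2, Ephx1 and Cyp2j6, and 699 of all 13814 tested genes. In the fit against oil content as a continuous dose, 2 of the 10 passed, Ephx1 rising and Cyp2j6 falling, where 2.23% of all genes passed (1.22% rising and 1.01% falling).

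Several of these enzymes differed by sex. Of the 10, 4 were lower in females than in males, and 0 were higher, where 8.94% of all tested genes passed, 5.34% lower and 3.6% higher in females. Cyp4v3 was lower by -0.98 ± 0.15 on the log2 scale (edgeR adjusted p = 0.00118). Ephx2 stood at -0.61 ± 0.15 (adjusted p = 0.0241), Cyp2j5 at -0.60 ± 0.17 (0.0429) and Cyp2j6 at -0.41 ± 0.12 (0.0421). Ephx1, at -0.96 ± 0.30, missed the threshold (0.0625). Leaving out 1 liver at a time left 1 to 4 of these calls, and Cyp4v3 was called in each of the 12 fits. Ephx2 lost its call without N983 (adjusted p = 0.0617), N972 (0.0679), N979 (0.0537), N968 (0.0602) or N967 (0.0585). Cyp2j5 kept its call only without N980 or N987, and Cyp2j6 only without N980 or N971.

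Across the 12 livers, after the mean of each sex was taken out of log2 CPM, Ephx1 ran opposite to Cyp4f14 (Pearson r = -0.875) and Cyp2j6 (-0.774). Cyp2j6 ran with Cyp4v3 (0.720) and Cyp2j5 with Hpgd (0.743). These values describe 12 livers that share diets and libraries. Among 10558 named genes, the patterns most like that of Ephx1 belonged to Iqsec2 (r = 0.956), Tsku (0.945) and Ddhd2 (0.941), and those most like that of Cyp2j6 to Dio1 (0.971), Pde9a (0.950) and Mocs2 (0.932).

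Among the other epoxygenases, Cyp2c29 rose at 5%. Of 14 tested genes of 22 listed, 1 rose and 0 fell, and the median log2 fold change was 0.62 at 5% and -0.06 at 1%. The gene that rose was Cyp2c29, a Cyp2c epoxygenase of liver, from 578 ± 174 to 1891 ± 689 CPM (SD, n = 4), or 1.71 ± 0.31 on the log2 scale (edgeR adjusted p = 0.0124). It was also higher at 5% than at 1%, by 1.79 ± 0.31 (adjusted p = 0.0256). The other epoxide hydrolases gave 1 tested gene of 3, Lta4h, which makes leukotriene B, with a log2 fold change of -0.01 ± 0.15 at 5% (adjusted p = 0.991).

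Of 12 other omega-hydroxylases tested of 17, 3 rose and 0 fell at each dose, with medians of 0.37 at 5% and 0.62 at 1%, and 7 of the 12 had a positive log2 fold change at 5%. Cyp4a10, Cyp4a14 and Cyp4a31, the Cyp4a hydroxylases under the control of PPAR alpha, rose at 5% by 2.56 ± 0.26, 2.57 ± 0.29 and 1.61 ± 0.27 on the log2 scale. At 1% they rose by 2.55 ± 0.26, 2.37 ± 0.28 and 2.48 ± 0.27 (edgeR adjusted p at most 0.00712 over both doses). Sequence shared among the Cyp4a genes was not measured here, so how reads were divided between them is uncertain. Of the 5 electron donors of P450 enzymes 0 passed; Por, the P450 reductase, had a log2 fold change of 1.14 ± 0.29 at 5% (adjusted p = 0.0573) and 1.47 ± 0.29 at 1% (0.0564).

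Further reductases and dehydrogenases of prostaglandins and leukotrienes rose at 5%, 3 of 15 tested of 18 listed, with 0 lower and a median of 0.15. They were the carbonyl reductases Cbr1 (1.31 ± 0.19, edgeR adjusted p = 0.00342) and Cbr3 (2.75 ± 0.39, 0.00317) and the aldo-keto reductase Akr1c19 (1.45 ± 0.21, 0.00342). At 1% 0 passed. Between 5% and 1% 4 were higher, those 3 and Akr1c14 (1.70 ± 0.34, adjusted p = 0.0390). Cbr3 had a mean of 0.519 CPM in controls and 3.67 CPM at 5%, so its fold rests on few reads.

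Genes of fatty acid release, prostanoid and leukotriene synthesis, and oxylipin transport and reception were listed as well. Over all tested genes 1.19% rose at 5%. Of 11 fatty acid release genes of 13 listed, 1 rose at 5%, the phospholipase Pla2g12a (0.87 ± 0.22, edgeR adjusted p = 0.0499), and the list median was 0.08. Of 9 cyclooxygenases and prostanoid synthases of 11, 0 passed; the smallest p was that of Ptgds, a prostaglandin D synthase, at -3.88 ± 1.09 (adjusted p = 0.0871), read at 0 to 8.34 CPM in controls. Of 4 lipoxygenase and leukotriene synthase genes of 15, 0 passed, with Mgst3 at 0.75 ± 0.22 (0.0951). Among 9 transporters and receptors of 22, 1 rose at 5%, Abcc4, an export pump that carries prostaglandins, by 2.97 ± 0.27 (adjusted p = 8.77e-05). None of these passed at 1%.

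Genes of regulators that act on detoxifying enzymes differed as well, and their part in the responses of the 10 enzymes was not tested. Of 21 NRF2 targets 9 rose and 0 fell at 5%, 0 passed at 1%, and 10 were higher at 5% than at 1%, with medians of 0.68, -0.13 and 0.97. Nqo1, a quinone reductase, had a log2 fold change of 1.70 ± 0.18 at 5% and -0.10 ± 0.18 at 1%. Of 15 CAR targets 3 rose and 1 fell at 5% and 0 passed at 1%, with medians of 0.72 and -0.06, and Cyp2b10 rose at 5% by 2.54 ± 0.51 (edgeR adjusted p = 0.0231). Cyp2b10 was read at 0.157 to 9.10 CPM in controls and 7.29 to 36.1 CPM at 5%, so these groups overlapped and its fold rests on low control values. Of 25 PPAR alpha targets 10 rose and 1 fell at 5% and 6 rose at 1%, with medians of 0.59 and 0.70, and Acot1 rose by 2.46 ± 0.18 and 2.50 ± 0.19. Some genes stand on more than 1 of these lists, Cyp2c29, Cbr3 and the Cyp4a genes among them.

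Clock genes moved with the diet too. Of 20 tested, 8 rose and 4 fell at 5%, with Dbp, a clock output factor, at 5.36 ± 0.83 (edgeR adjusted p = 0.00919). Dbp had a mean of 0.566 CPM in controls and 26.4 CPM at 5%, so its fold rests on few control reads. At 1% 1 rose, Tef (edgeR adjusted p = 0.0292), and Dbp did not pass (0.0718). The labels give no hour of collection, and the part of time of day in the values of Ephx1 and Cyp2j6 was not tested.

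**Figure D4:**
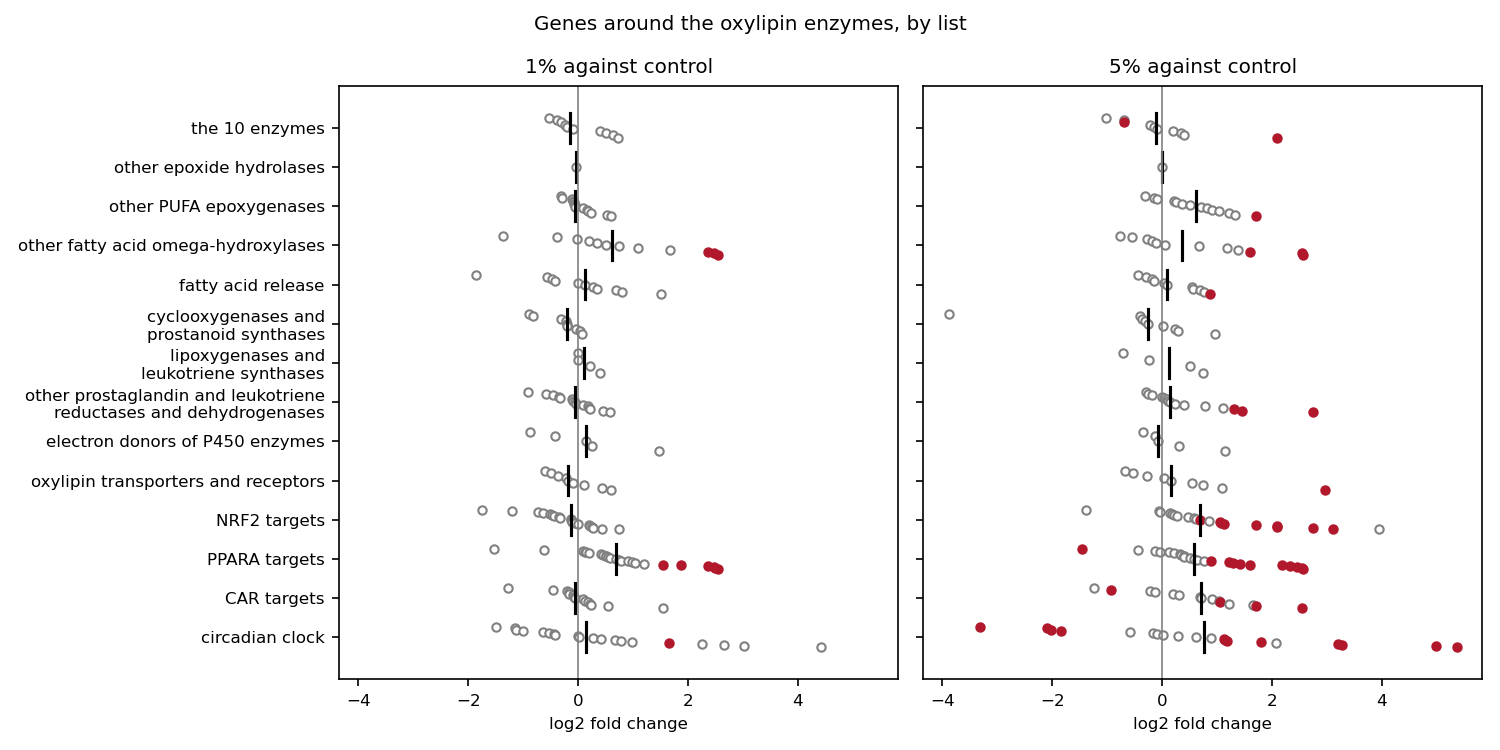
Log2 fold changes (horizontal axes) at 1% and 5% against control for the 10 enzymes and for the tested genes of each list. Each point is a gene, filled red where it passed the edgeR test at an adjusted p of 0.05, and black bars give the median. The NRF2 median lies at -0.13 at 1% and at 0.68 at 5%, while the PPAR alpha median lies at 0.70 and 0.59.

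The authors' deposited table of 261 genes lists 2 of the 10 enzymes, Ephx1 and Ephx2. In the authors' deposited table the log2 fold change of Ephx1 is 1.47 (adjusted p = 0.00160) and that of Ephx2 is 0.68 (adjusted p = 0.0162). The authors' deposited table does not name its contrast. Its log2 values lay nearest to the mean of both oil diets minus control, with a median absolute difference of 0.0215, against 0.206 for 5% minus control and 0.268 for 1% minus control.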

How the data were processed

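Liver RNA of 12 mice was sequenced from a stranded poly(A) kit, per the labels' protocols. The authors deposited estimated counts per gene (49398) and per transcript (141450), a CPM table of 11339 genes, and a table of 261 genes with log2 fold changes, p-values and adjusted expression values (signal), per the file headers. Kallisto, edgeR, limma and GRCm39 are named in the submitters' processing notes, without versions or roles; whether counting used strand is not given in the sources used here. The deposited log2, p-value and signal columns entered no test.

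Rounded counts went into edgeR 4.0.16 (R 4.3.3), with filterByExpr over the 6 groups of diet and sex, TMM factors, and a robust quasi-likelihood fit of diet plus sex over all 12 livers, 2-sided, with Benjamini-Hochberg adjustment over 13814 genes and a threshold of 0.05. A fit of the 6 groups gave the responses within each sex. The common biological coefficient of variation was 0.266. Standard errors were derived from each F statistic. RPKM here divide transcript counts by transcript length. P-values of the fits weigh a fitted difference or slope against the spread between animals. The fit was tested on simulated data. Transcript shares used exact permutation tests for the 4 genes with at least 2 transcripts of 5% of reads each. These tests did not take sex into account.

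Alternatives were RLE and upper-quartile factors, no filter, 50 reads in 4 libraries, DESeq2 1.42.0, limma 3.58.1 (voom, and trend on log2 of deposited CPM plus 0.5), transcript sums, no sex term, the noncoding share in the design, each liver left out, and each sex alone. The 10 genes and all lists were chosen with earlier results of these data known. All 10 were named; from each list every gene past the threshold in a diet comparison, or else that with the smallest p at 5%; and for genes called, the 3 most correlated genes whose mean log2 CPM reached 1. From the regulator lists (NRF2, PPAR alpha, CAR, clock) Nqo1, Acot1, Cyp2b10 and Dbp were named. The markers of endothelium, stellate cells, cholangiocytes and leukocytes also had 0 genes past the threshold in the diet comparisons. Their median log2 fold changes at 5% against control were -0.43, -0.32, -0.28 and 0.13. Symbols came from a reference table (48845 IDs matched, 553 not), and list symbols Cyp2c44, Prxl2b, Ptgr3 and Bmal1 matched none. Promoters are RefSeq's (GRCm38.p6).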

Additional observations from a re-analysis of the deposited data

Results flagged for a closer look

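Among 30 groups of 4 livers (10 enzymes in 3 diets), 1 held a liver far from the others: control N979 had 219 CPM of Cyp4f15, against 78.5 to 87.7 CPM in the other 3 controls. Chance alone marks about 1 in 20 such groups. N979 was also the shallowest library, at 5291385 reads. Without it the log2 fold change of Cyp4f15 was 1.04 at 1% and 0.32 at 5%, in place of 0.63 and -0.09.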

How the results depend on the processing

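Over the single-enzyme values under the alternatives, 950 kept their direction and side of the threshold, 46 lost a call, 35 gained one and 25 changed sign; the causes were not tested. The number of the 10 enzymes called at 5% against control was 4 with DESeq2, 0 with no sex term and 0 to 3 when 1 liver was left out (0 without N980, 3 without N983). At 1% it was 1 with no filter, 1 with DESeq2 and 0 to 1 without a liver. Between 5% and 1% it was 1 with upper-quartile factors, the stricter filter, voom or limma trend, 2 with no filter or DESeq2, and 0 to 3 without a liver. For the dose slope it was 4 with DESeq2, 0 with no sex term and 1 to 2 without a liver. For sex it was 2 with upper-quartile factors and 1 to 4 without a liver. For the difference between the sexes at 5% it was 1 with no filter and 1 with DESeq2, and transcript shares gave 0 in all 8 fits without a liver.

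None of the values that changed sign had passed the test. At 5% against control, Cyp4f15 stood at 0.15 with limma trend, 0.020 with the noncoding share, 0.21 within males and -0.26 to 0.32 without a liver. Ptgr1 stood at 0.027 with limma trend and 0.17 within females, and Cyp2j5 at -0.37 to 0.053 without a liver. At 1%, with the noncoding share, Cyp2j5 stood at 0.049 and Hpgd at 0.047; without a liver they ran from -0.39 to 0.045 and from -0.38 to 0.033. Cyp2j6 stood at 0.043 within females. Between 5% and 1%, Cyp2j5 stood at -0.0032 with RLE factors or DESeq2, -0.053 with upper-quartile factors, -0.017 with the stricter filter, -0.24 with the noncoding share and -0.045 to 0.11 without a liver. Cyp4f13 stood at 0.0071 with limma trend, 0.13 with the noncoding share and -0.13 to 0.051 without a liver.

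Over all tested genes, calls at 5% against control numbered 340, against 1011 with no filter, 749 with DESeq2, 574 with the noncoding share and 107 with no sex term. Not all counts in this paragraph are like for like, because the settings tested different numbers of genes. The main fit and DESeq2 tested 13814 genes, against 25400 with no filter and 9850 with the stricter filter. Limma trend tested only the genes of the deposited CPM table. Each fit without a liver tested more genes than the main fit. At 1% they numbered 31, against 649, 266, 50 (stricter filter), 54 (limma trend) and 10 (no sex term). Between the doses they numbered 184, against 1276, 699, 280 (limma trend), 37 (noncoding share) and 8 (no sex term). For the slope they numbered 308, against 1108, 733, 530 and 124, and for sex 1235, against 2375 and 2079. With 1 liver left out they ran from 138 (without N976) to 479 (N975) at 5%, 13 (N984) to 184 (N979) at 1%, 13 (N971) to 597 (N975) between the doses, 80 (N976) to 424 (N975) for the slope and 594 (N967) to 2356 (N980) for sex. The differences between the sexes gave 0 at each dose, against 229 and 109 with no filter and 34 and 6 with DESeq2. Member calls for the differences between the sexes were not run with limma trend or transcript sums. Depth is lowest for Ptgr1, with 380 reads over all livers. No paired analysis was possible because each animal number occurs in a single group.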
